A study of Macaca mulatta with 34 samples.

Results

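The comparison was between 2 treatment groups of rhesus macaques (Macaca mulatta), intmiS1 and StufferOnly, each with 3 libraries of total RNA from the deep cerebellar nuclei (DCN). The 6 libraries were those of Study 2 whose titles carry these treatment names, out of 34 samples in the series. All animals received the named agent by injection into the DCN under magnetic resonance guidance, and the animal identifiers in the labels differ between the 6 libraries. The intmiS1 agent is an adeno-associated virus (AAV) vector for the artificial microRNA miS1, which is aimed at ATXN1. The names of the vector references place miS1 in an intron of a human ATXN1L unit behind an EF1a promoter. StufferOnly is named for filler DNA. Animals given empty capsid, a further Study 2 group of 3 libraries, are shown beside the comparison as a background. A miSCA7Stuffer group of 3 libraries is not compared here. Both groups entered the fit and its estimate of the spread. The sources used here do not state dose, age or the time between injection and tissue collection. Study 2 was designed to describe the immune responses to each redesigned construct.

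The DCN are the output nuclei of the cerebellum, where large projection neurons lie among inhibitory neurons and dense myelinated fibres. AAV is a small DNA virus whose capsid and genome can be sensed by innate immune receptors, and injected brain tissue can respond with activated microglia, entering blood macrophages, complement, interferon-stimulated genes, antigen presentation and lymphocytes. Macrophages that clear lipid-rich debris such as myelin raise genes of lipid handling and the lysosome. In bulk tissue, a lower level of a gene can come from fewer cells of a type or from less RNA per cell, and these cannot be told apart here.

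The libraries were not all counted alike, and this bears on the results. The intmiS1 replicates 1 and 2 were deposited as STAR gene tables with 5169866 and 4858179 counts in genes. The intmiS1 replicate 3 (32289107 counts) and the StufferOnly libraries (22183232 to 32618716 counts) were deposited as featureCounts tables. STAR leaves out reads that overlap several genes, and featureCounts was run here so that such reads count in each gene. The rank correlation of gene levels was 0.97 between the 2 STAR libraries and 0.931 and 0.924 between each of them and intmiS1 replicate 3. Replicate 3 correlated at 0.983 to 0.985 with the empty capsid libraries, which were counted with featureCounts as well. Each change was therefore read again in intmiS1 replicate 3 alone. A call is said to hold when that library lay outside the range of the StufferOnly libraries on the side of the call. Replicate 3 also took part in the fit behind each call, so holding is a description and not an independent test.

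Tissue markers were present in the 6 libraries, among them MBP of oligodendrocytes, GFAP and AQP4 of astrocytes, and SLC17A6 and NEFH of the projection neurons. StufferOnly replicate 2 stood apart in markers of granule cells, the small neurons of the cerebellar cortex. Its FAT2 level was 188 CPM (read counts scaled to the same library total), beside 5.7 and 11 in the other StufferOnly libraries and 14.7, 15.3 and 35.1 with intmiS1. GABRA6 was at 30.1 CPM and NEUROD1 at 34.9 CPM in that library, and neither passed 6.41 CPM in the others of the 2 groups. The summed level of the granule cell list was 950 to 1670 CPM with StufferOnly and 1727 to 1915 CPM with intmiS1, and none of its 21 members was called. Among choroid plexus markers, FOLR1 was at 0.566 to 2.36 CPM, KL at 0.627 to 3.11 CPM and TTR at 5.91, 21 and 14.8 CPM with intmiS1 and 5.61, 2.41 and 26.8 CPM with StufferOnly.

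ATXN1, the target of miS1, was not detectably lower with intmiS1. Its levels were 50.5, 28.5 and 44.3 CPM with intmiS1 and 49.5, 48.7 and 50.5 CPM with StufferOnly. Replicate 2 of intmiS1 was the lowest, and replicate 1 reached the level of the StufferOnly libraries. The mean with intmiS1 was 82.9% of the StufferOnly mean, with a log2 fold change of -0.27 and an approximate 95% interval of -0.83 to 0.29. The edgeR quasi-likelihood test gave an adjusted p of 0.552, and an exact two-sided permutation test gave p = 0.4, where 3 against 3 libraries cannot go below 0.1. ATXN7, the gene behind spinocerebellar ataxia type 7 and not a target of miS1, was at 46.9, 49 and 31.5 CPM against 40.7, 47 and 42.8 CPM (log2 fold change -0.04, adjusted p = 0.91 by edgeR). ATXN1L, a paralog of ATXN1 whose human form is named in the vector reference, was at 81.2, 91.4 and 86 CPM against 82.6, 85.6 and 86.9 CPM. Its mean was 101% of the StufferOnly mean, with an approximate interval of -0.32 to 0.36 on the log2 scale.

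Vector reads differed between the groups. The reference named for the intronic ATXN1L and miS1 construct is listed in the STAR tables of intmiS1 replicates 1 and 2, at 568 and 648 RPM (reads scaled to the counts in genes). In replicate 3 a differently named intronic miS1 reference is listed instead, at 44.6 RPM, so the 3 values are not on one scale. The StufferOnly libraries held 350, 625 and 248 RPM on a reference named GpKFBextmU6miS1newStfr, and intmiS1 libraries held at most 1.44 RPM there. That name carries mU6 and miS1 as well as an abbreviation that may stand for the stuffer, so it does not by itself tell what the StufferOnly vector holds. Reads on the stuffer feature itself were 290, 490 and 193 RPM with StufferOnly and at most 0.186 RPM with intmiS1. The StufferOnly libraries also held 5.49, 7.17 and 3.24 RPM on a feature named RNAi expression cassette and 4.63, 5.54 and 2.49 RPM on one named Pri miRNA, both of which were at 0 in every intmiS1 library. Without the vector sequences it could not be checked which of these features the StufferOnly vector shares. The feature named miS1 was at 0 in all 6 libraries. The counting interval reached 0.759 RPM in the shallowest of them, intmiS1 replicate 2. These are libraries of total RNA, and the small RNA libraries of intmiS1 animals in Study 2 were not analysed here. Whether miS1 was made was therefore not tested.

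Genes of macrophages, phagocytosis, lysosomes and antigen presentation were far lower with intmiS1 than with StufferOnly, and genes of myelin were higher. Of 21501 genes tested, 1820 were called lower and 734 higher at an adjusted p under 0.05 by edgeR. These are 8.46% and 3.41% of the genes tested, and they are the background for the counts given for each gene group. The median log2 fold change was -1.55 among the genes called lower and 0.91 among those called higher, while the median of all genes tested was -0.06. At least a 4-fold difference was reached by 671 genes called lower and 54 called higher. In intmiS1 replicate 3, all 1820 lower calls held (8.46%) and 719 of 734 higher calls held (3.34%). Replicate 3 helped to make these calls, so most of them were likely to hold. For any gene tested, called or not, replicate 3 lay below the StufferOnly range in 35.2% and above it in 32.5%. Over all genes tested, the 2 groups of 3 libraries did not overlap in 4865 genes that were lower (22.6%) and 3324 that were higher (15.5%) with intmiS1.

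The calls depended on single libraries. With intmiS1 replicate 1 left out, 84 genes were lower and 48 higher, and with replicate 2 left out 159 and 73. With StufferOnly replicate 2 left out, 313 were lower and 132 higher, and with StufferOnly replicate 3 left out 600 and 189. Without intmiS1 replicate 3 there were 2888 lower and 944 higher calls. With the featureCounts libraries alone, which leaves 1 intmiS1 library and a spread taken from the other groups, edgeR called none of 23447 genes in either direction, with 2447 lower and 1022 higher at an unadjusted p under 0.05. DESeq2 called 1184 lower and 333 higher from those same libraries. Of the 2554 calls, 2546 kept their direction in the featureCounts libraries alone, and each one tested kept it with any single library left out. These settings reuse libraries that made the calls, so a kept direction was likely. Some calls close to the threshold were lost in other settings too: HSF1, MCM5, TIMP1, PTPN9 and SPP1 with RLE scaling, with no filter and with the reverse STAR column, and ATP5PB, CSPG4 and TNRC6A with no filter and with the 6 libraries alone. The 6 libraries alone also lost HSF1, MCM5, TIMP1, CD8A, LAT and RPL7A, no filter also lost LIAT1, and the reverse column lost DDIT3, ICAM2, NUSAP1, WARS1 and ZFHX2. The spread shared by the fit also takes in the miSCA7Stuffer libraries, which differed widely among themselves. Their summed level of activated microglia and macrophage genes was 3023, 18830 and 20590 CPM. SEs and adjusted p values therefore do not rest on the 2 compared groups alone. These limits apply to every count below.

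The 12 largest falls among called genes that held in replicate 3, had a symbol and averaged at least 1 log2 CPM included several genes known from macrophages. PLA2G2D, a secreted phospholipase, was at 0.381, 0.197 and 0.126 CPM with intmiS1 and at 193, 172 and 102 CPM with StufferOnly, a log2 fold change of -9.74 (SE 2.17, adjusted p = 0.0203). All 3 intmiS1 libraries lay in the range of the empty capsid libraries, at 0.208, 0.414 and 0.0332 CPM. GPNMB, a glycoprotein of macrophages that take up lipid, was among the most abundant of these genes, at 3120, 5440 and 5250 CPM with StufferOnly. It was at 36.2, 103 and 10.9 CPM with intmiS1 and at 6.48, 6.85 and 2.89 CPM with empty capsid, so that every intmiS1 library lay above the empty capsid libraries and far below StufferOnly. Its log2 fold change was -6.53 (SE 1.64, adjusted p = 0.0297).

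CHIT1, a chitinase secreted by activated macrophages, was at 11.6, 12.8 and 3.9 CPM with intmiS1 and 582, 3500 and 2080 CPM with StufferOnly. Empty capsid libraries were lower still, at 1.51, 0.752 and 0.73 CPM. ACP5, the tartrate-resistant acid phosphatase of osteoclasts and macrophages, was at 0, 0 and 0.283 CPM with intmiS1 and 7.52, 108 and 96.9 CPM with StufferOnly. The spread within StufferOnly was wide for both, with replicate 1 the lowest. MMP9, a gelatinase that degrades matrix, was at 0.953, 0.197 and 0.629 CPM against 42.9, 417 and 107 CPM, a log2 fold change of -8.27 (SE 1.67, adjusted p = 0.016).

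The other genes among these 12 were ADAMDEC1, P2RX1, CR1, GDF15, APOC2, ADGRE2 and SOAT2. ADAMDEC1, a protease of mature macrophages, was at 0.572 to 1.38 CPM with intmiS1 and at 45.6, 263 and 48.9 CPM with StufferOnly. CR1, the complement receptor for C3b, was at 0.381, 0.983 and 0.409 CPM against 47.5, 68.9 and 53.4 CPM. GDF15, a stress-induced cytokine, was at 0.126 to 0.393 CPM against 15 to 23.3 CPM. APOC2, the cofactor of lipoprotein lipase, and SOAT2, which esterifies cholesterol, had log2 fold changes of -6.52 and -6.44. P2RX1, an ATP-gated channel, and ADGRE2, an adhesion receptor of myeloid cells, had log2 fold changes of -6.96 and -6.52. In all 12 genes the highest intmiS1 library was below the lowest StufferOnly library, as the plot of the 12 largest falls shows. The rule that picked them made this likely, and it was so for 1818 of all 1820 genes called lower.

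**Figure D1:**
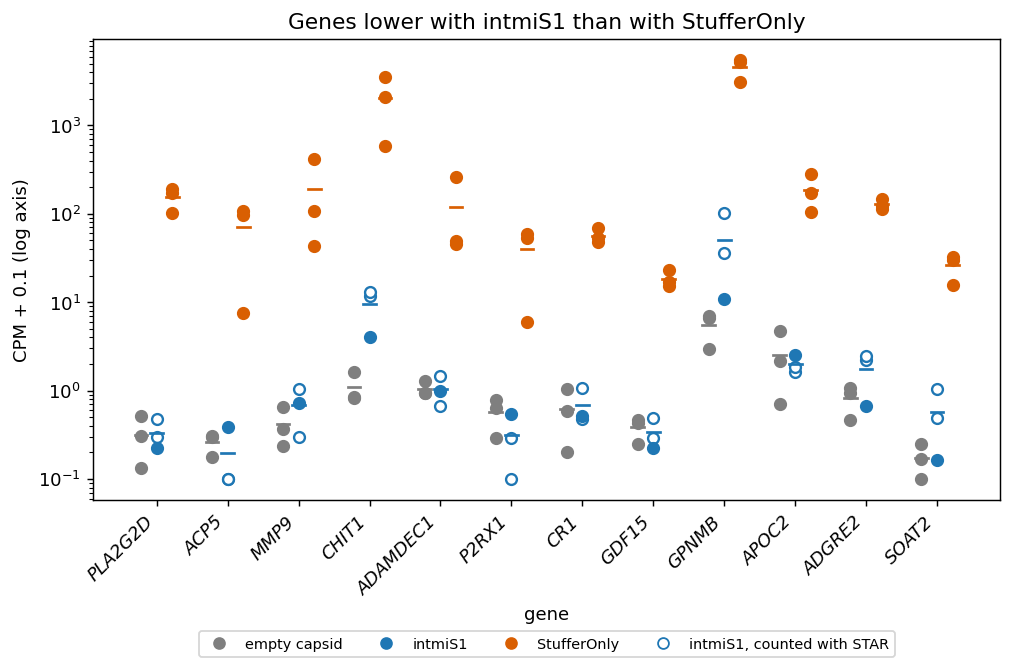
Levels of the 12 genes with the largest falls, in CPM with 0.1 added, on a log axis; each point is a library, bars are group means, and open points are the intmiS1 libraries counted with STAR. For every gene the 3 intmiS1 libraries lie below the 3 StufferOnly libraries, for GPNMB at 10.9 to 103 CPM against 3120 to 5440 CPM. The genes were picked as called falls that held in intmiS1 replicate 3, which made this likely.

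Across the list of activated microglia and macrophages, 30 of 38 members tested were lower and none was higher, with a median log2 fold change of -2.86 (-2.54 in intmiS1 replicate 3 alone). The summed level of the list was 2728 to 3492 CPM with intmiS1, 20720 to 37050 CPM with StufferOnly and 3201 to 3482 CPM with empty capsid. APOE, the main lipid carrier of the brain, was at 495, 440 and 451 CPM with intmiS1 and 2460, 2800 and 2390 CPM with StufferOnly. The spread within each group was small beside this difference (log2 fold change -2.47, SE 0.38, adjusted p = 0.01). ABCG1, which exports cholesterol from cells, fell from 83.3, 83.3 and 87 CPM with StufferOnly to 42.9, 27.9 and 38.9 CPM with intmiS1 (log2 fold change -1.21, SE 0.17, adjusted p = 0.00797). CD36, a scavenger receptor for oxidised lipids, was at 1.72, 3.93 and 3.02 CPM against 53.9, 52.7 and 90.8 CPM. Among markers that define macrophages, MSR1 was at 0.953, 5.9 and 4.09 CPM against 81, 149 and 143 CPM and was called, while CD163 was at 8.58, 13.4 and 6.89 CPM against 45.6, 59.4 and 20.4 CPM and was not called (adjusted p = 0.0529 by edgeR).

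Lysosomal genes were lower as well, with 23 of 36 members called, none called higher, and a median of -1.63 (-1.70 in replicate 3). Their summed level was 5301 to 5728 CPM with intmiS1 and 16280 to 25850 CPM with StufferOnly. PSAP, the precursor of proteins that activate sphingolipid breakdown, was at 882, 855 and 933 CPM against 2400, 3370 and 3120 CPM (log2 fold change -1.74, SE 0.24, adjusted p = 0.00774). CTSL, a cathepsin, was at 21.7, 17.1 and 27.6 CPM against 82.2, 148 and 100 CPM. GUSB, the lysosomal beta-glucuronidase, was at 9.34, 17.7 and 30.9 CPM against 128, 187 and 132 CPM. CTSB, another cathepsin, was at 121 and 140 CPM in the STAR libraries and at 330 CPM in intmiS1 replicate 3, against 2980, 6990 and 4030 CPM with StufferOnly. The STAR libraries were at least 2-fold below every featureCounts library for this gene, and replicate 3 alone gave a log2 difference of -3.73 beside the fitted -4.56.

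Microglia genes did not all move one way. In the list of homeostatic microglia, 7 of 13 members were lower and 1 was higher, with a median of -1.38. AIF1, which encodes the microglia and macrophage protein IBA1, was at 4.96, 7.86 and 7.36 CPM with intmiS1 and 28.7, 28.7 and 28.6 CPM with StufferOnly. CSF1R, the receptor that microglia need to survive, fell from 351, 321 and 296 CPM with StufferOnly to 175, 213 and 155 CPM with intmiS1 (log2 fold change -0.83, SE 0.18, adjusted p = 0.0184). TGFBR1, the receptor for TGF-beta, was at 53 to 82.4 CPM against 195 to 263 CPM. The member called higher was SALL1, a transcription factor of resident microglia that other brain cells also express, at 179, 234 and 137 CPM against 112, 77.7 and 113 CPM (named after its values were seen). CX3CR1, the fractalkine receptor, was at 94.6, 136 and 156 CPM against 61.4, 15 and 40.3 CPM without overlap between the groups, and it was not called (log2 fold change 1.73, adjusted p = 0.0673 by edgeR). P2RY12, a purinergic receptor of resting microglia, was at 40, 72.7 and 77.6 CPM against 79.8, 38.2 and 67.8 CPM (log2 fold change 0.04, adjusted p = 0.95).

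Complement and phagocyte receptor genes were lower in the same libraries. Of 21 complement genes, 12 were lower and none higher (median -2.22, and -2.13 in replicate 3). C1QB, a chain of the C1q complex that starts the classical pathway, was at 26.9, 23.8 and 18 CPM with intmiS1 and 353, 305 and 360 CPM with StufferOnly, a log2 fold change of -3.90 (SE 0.70, adjusted p = 0.0129). Empty capsid libraries were at 21.3, 18.5 and 11.7 CPM, so the intmiS1 and empty capsid ranges overlapped. C1QA, another chain of C1q, was at 9.34, 10.6 and 15.1 CPM against 90, 58.1 and 63.2 CPM. C5AR1, the receptor for the C5a fragment, was at 13.5, 18.5 and 15.4 CPM against 109, 104 and 107 CPM. CFI, an inhibitor that cleaves C3b, was also lower, at 5.91, 9.24 and 13.6 CPM against 23.4, 23.4 and 32.3 CPM. The summed level of the complement list was 2513 to 2764 CPM with intmiS1 and 4051 to 4557 CPM with StufferOnly.

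In the list of Fc receptors and phagocyte signalling, 24 of 25 members were lower, with a median of -2.53 (-2.37 in replicate 3). CD14, a co-receptor for lipopolysaccharide, was at 4.77, 7.47 and 8.4 CPM against 48.4, 52.4 and 44.4 CPM. VAV1, a signalling protein of blood cells, was at 4.96, 5.31 and 6.26 CPM against 46.9, 53.8 and 43.7 CPM. NCF1, a subunit of the phagocyte NADPH oxidase, had a log2 fold change of -2.35 (SE 0.41, adjusted p = 0.0126). The summed level of the list was 276.8 to 403.1 CPM with intmiS1, 1621 to 2152 CPM with StufferOnly and 300.4 to 373.2 CPM with empty capsid.

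Genes of antigen presentation were lower on both the class II and the class I side. All 7 MHC class II genes tested were lower (median -2.93). CD74, the invariant chain, was at 237, 566 and 366 CPM with intmiS1 and 1520, 3330 and 2380 CPM with StufferOnly (log2 fold change -2.63, SE 0.59, adjusted p = 0.0203). MAMU-DRA, the macaque DR alpha chain, was at 51.5, 140 and 97.1 CPM against 448, 990 and 752 CPM, and empty capsid was at 72.5, 64.1 and 60.3 CPM. MAMU-DMB, which helps to load peptides, was at 10.1, 23.6 and 14.5 CPM against 80, 204 and 152 CPM, and MAMU-DOB at 10.2 to 14.7 CPM against 25.6 to 47.9 CPM. In 3 of these 4 genes, CD74, MAMU-DRA and MAMU-DMB, replicate 2 was the highest intmiS1 library.

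Among genes of MHC class I and the immunoproteasome, 11 of 17 were lower and none higher (median -1.49). MAMU-A, a class I heavy chain, was at 79.5, 49 and 37.1 CPM against 492, 1090 and 675 CPM, with a log2 fold change of -3.77 (SE 0.63, adjusted p = 0.0111). Class I genes form a family of near-identical copies, so the share of reads given to any 1 of them is uncertain. The immunoproteasome subunits PSMB8 and PSMB9, which cut proteins into peptides for class I, were at 6.29 to 15.7 CPM against 40.8 to 99.7 CPM and at 1.72 to 4.65 CPM against 12.6 to 28.9 CPM. PSME2, a part of the proteasome activator, was at 8.2, 9.44 and 12.8 CPM against 23.4, 38.1 and 25.4 CPM.

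Of 46 interferon-stimulated genes tested, 21 were lower and none higher (median -1.46, and -1.59 in replicate 3). With the 6 libraries alone 35 were lower. BST2, which tethers budding virus particles to the cell, was at 3.43, 4.92 and 5.88 CPM with intmiS1 and 24.4, 35.7 and 16.7 CPM with StufferOnly (log2 fold change -2.40, SE 0.33, adjusted p = 0.00774). UBE2L6, the enzyme that attaches ISG15, was at 7.63, 11 and 9.15 CPM against 26.7, 39.6 and 48 CPM. RIGI, a cytosolic RNA sensor, was at 13.5, 12 and 16.7 CPM against 31.3, 35.7 and 33.1 CPM, and WARS1, a tRNA synthetase induced by interferon, at 61.7 to 72.7 CPM against 114 to 127 CPM. The groups did not overlap in any of the 4, which were picked as the called members with the smallest p.

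Among 20 nucleic acid sensors and their adaptors, 9 were lower (median -1.04). UNC93B1, which carries the endosomal Toll-like receptors to their compartment, had the largest fall of the 4 named, from 48.1, 69.2 and 61.2 CPM with StufferOnly to 8.58, 10 and 6.32 CPM with intmiS1. IRF3, a transcription factor that turns on interferon, was at 19.6, 21.8 and 28.3 CPM against 42.5, 65.9 and 46.8 CPM. TREX1, a DNase that removes cytosolic DNA, was at 5.97 to 7.47 CPM against 12.8 to 14.4 CPM, and SAMHD1, which depletes nucleotides, at 59.3 to 76.5 CPM against 105 to 118 CPM.

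Of 15 NF-kB subunits and feedback genes, 10 were lower (median -1.28). RELB and REL, both subunits of the factor, were at 2.77 to 4.92 CPM against 16.1 to 24.5 CPM and at 9.94 to 13.2 CPM against 26.5 to 34.1 CPM. NFKBIE, an inhibitor of NF-kB, was at 6.48, 5.31 and 7.17 CPM against 13.8, 16.6 and 16 CPM. TNFAIP2, a target of tumour necrosis factor, was at 4.77, 4.33 and 4.72 CPM against 26.8, 33.3 and 32.9 CPM. In the list of inflammasome and cell death genes, 11 of 20 were lower (median -1.37). PYCARD, the inflammasome adaptor, was at 2.67, 4.33 and 4.31 CPM against 17.4, 22.7 and 24.1 CPM. BID and BAK1, which permeabilise mitochondria, had log2 fold changes of -1.16 and -1.21.

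Of 29 T cell genes, 8 were lower by edgeR and 21 by DESeq2 (median -2.87 by edgeR). The summed level of the list was 72.94 to 84.46 CPM with intmiS1, 298.7 to 495.6 CPM with StufferOnly and 35.43 to 91.96 CPM with empty capsid. The defining T cell markers were near 0 with intmiS1 and low with StufferOnly. CD3D was at 0, 0.983 and 0 CPM against 1.19, 6.68 and 2.39 CPM, and CD3E at 1.33, 6.49 and 1.7 CPM against 6.18, 24.7 and 12.3 CPM, and neither was called (adjusted p = 0.143 and 0.0775 by edgeR). The called members included CD28, a costimulatory receptor, at 1.33, 1.77 and 2.23 CPM against 5.73, 9.56 and 5.78 CPM, and CD8A, the co-receptor of cytotoxic T cells, at 1.91, 6.88 and 4.34 CPM against 33.2, 11 and 13.8 CPM. LAT, a T cell adaptor, and PDCD1, the checkpoint receptor PD-1, had log2 fold changes of -1.58 and -2.55. Of 13 cytotoxic lymphocyte genes, 1 was lower by edgeR and 6 by DESeq2. By edgeR this is near the share called lower over all genes tested, 8.46%. The gene called by edgeR was GZMB, a granzyme, at 0, 0.393 and 0.126 CPM against 2.03, 3.85 and 2.14 CPM.

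Of 24 genes of B and plasma cells, 3 were lower by edgeR (median -3.12) and 13 by DESeq2. PAX5, the transcription factor of B cells, was at 1.53, 0.59 and 0.943 CPM against 5.58, 21.3 and 10.5 CPM. SDC1, a surface protein of plasma cells, was at 0, 0.59 and 0.535 CPM against 6.18, 12.7 and 10.2 CPM, and DERL3, of endoplasmic reticulum quality control, at 7.05, 7.47 and 10.6 CPM against 18.4, 39.9 and 41.9 CPM. JCHAIN, which joins immunoglobulin multimers, was at 0.763, 27.3 and 1.92 CPM against 73.6, 377 and 558 CPM and missed the threshold (adjusted p = 0.0622 by edgeR). Replicate 2 was the highest of the intmiS1 libraries for JCHAIN and for CD3E.

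Of 28 chemokine and cytokine genes, 5 were lower and none higher (median -1.70), against 14 lower by DESeq2 and 13 with the 6 libraries alone. CCL18, a chemokine of alternatively activated macrophages, had 1 read in all 3 intmiS1 libraries together and 1894 reads with StufferOnly, at 18.8, 29.7 and 19.4 CPM. The ratio of StufferOnly to intmiS1 was 915, with a counting interval of 164 to 36100. TGFB1, the anti-inflammatory growth factor, was at 25, 28.7 and 26.2 CPM against 73.6, 89.2 and 98.5 CPM, and the intmiS1 libraries lay near the empty capsid libraries at 22.8, 22.5 and 27 CPM. CXCL16, a ligand and scavenger receptor, was at 43.5, 56.8 and 50.6 CPM against 135, 144 and 208 CPM. TNFSF13B, the B cell survival factor BAFF, was at 1.38 to 2.16 CPM against 8.18 to 9.28 CPM.

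**Figure D2:**
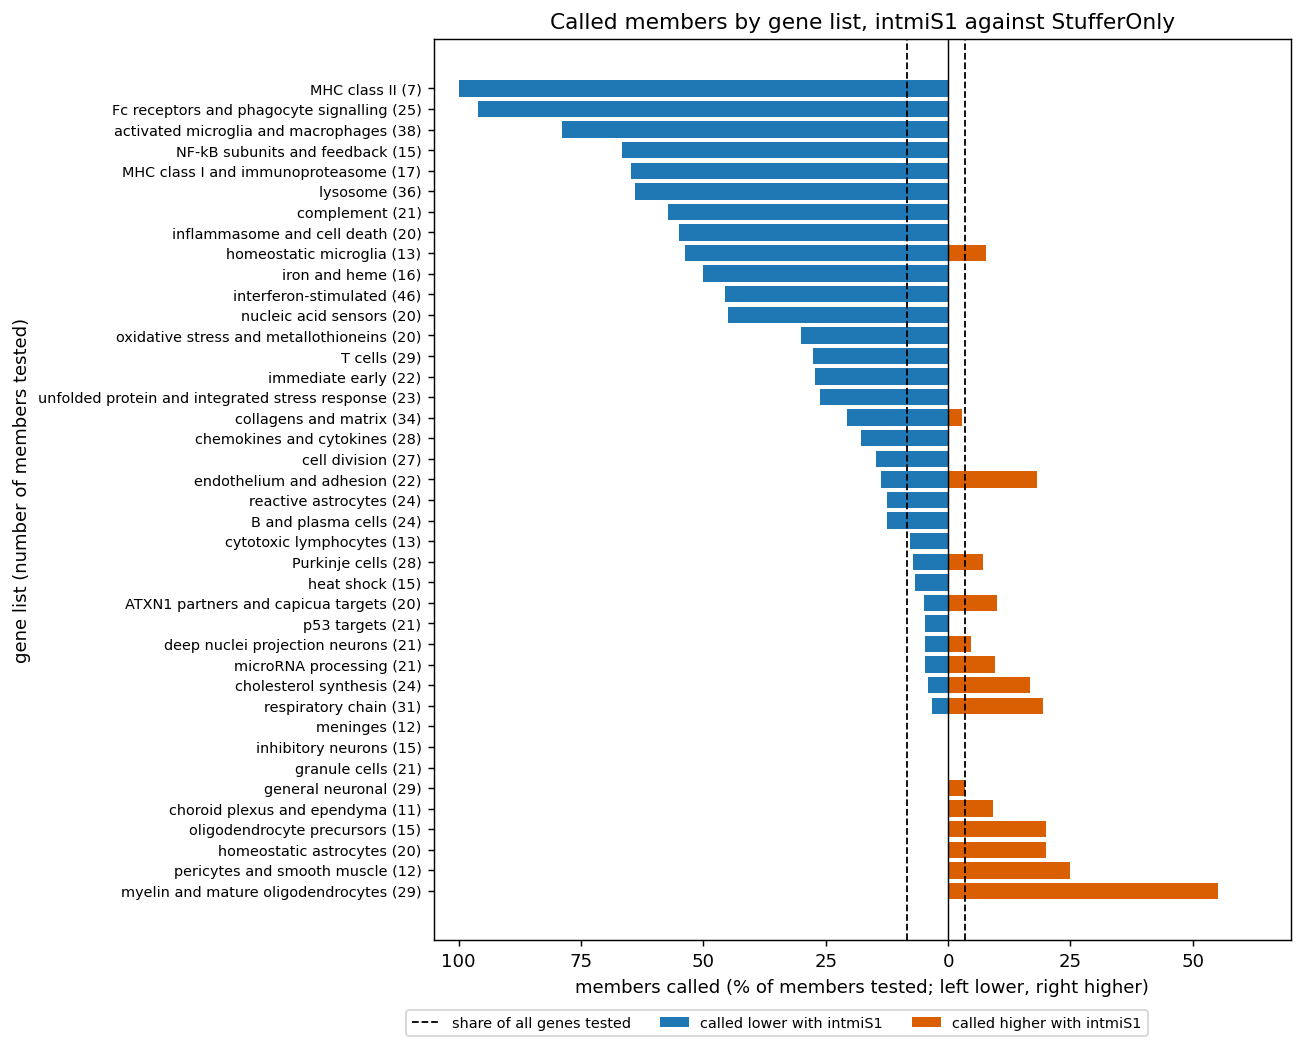
Share of tested members called lower (bars to the left) or higher (bars to the right) with intmiS1, in percent of the members tested, for lists with at least 5 such members; dashed lines give the share of all genes tested, 8.46% lower and 3.41% higher. All 7 MHC class II genes and 24 of 25 Fc receptor and phagocyte genes were lower, and 16 of 29 myelin genes were higher.

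Myelin genes were higher with intmiS1. Of 29 genes of myelin and mature oligodendrocytes, 16 were higher and none lower, with a median log2 fold change of 0.73 (0.84 in replicate 3). Their summed level was 39230, 49470 and 45250 CPM with intmiS1, 19570, 24590 and 22040 CPM with StufferOnly and 32950 to 47620 CPM with empty capsid. MBP, the myelin basic protein, was at 20900, 26300 and 20500 CPM with intmiS1 and 8660, 9580 and 8790 CPM with StufferOnly (log2 fold change 1.32, SE 0.24, adjusted p = 0.0134). MAL, a raft protein of compact myelin, was at 86.4, 114 and 78.3 CPM against 31.1, 32.3 and 30.7 CPM, with a log2 fold change of 1.57 (SE 0.18, adjusted p = 0.0069). BCAS1, of oligodendrocytes that are forming myelin, was at 557, 505 and 645 CPM against 232, 265 and 250 CPM. HAPLN2, a matrix link protein at nodes of Ranvier, and CARNS1, which makes carnosine, had log2 fold changes of 1.25 and 0.92. MOG, at the outer surface of myelin, was at 370, 381 and 436 CPM against 254, 443 and 349 CPM, and its groups overlapped (log2 fold change 0.18, adjusted p = 0.573).

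Of 15 genes of oligodendrocyte precursors, 3 were higher (median 0.49). VCAN, a matrix proteoglycan, was at 331, 328 and 345 CPM against 221, 147 and 155 CPM, and CSPG4, the proteoglycan NG2, at 28, 37 and 33.3 CPM against 24.6, 16.9 and 18.4 CPM. SMOC1, a secreted calcium-binding protein, had a log2 fold change of 0.75. PDGFRA, the growth factor receptor that marks these cells, was at 78.4, 81.2 and 83.4 CPM against 71.5, 53.5 and 81.4 CPM and was not called (adjusted p = 0.411).

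Of 20 genes of homeostatic astrocytes, 4 were higher and none lower, with a median of 1.09 (1.26 in replicate 3). DESeq2 called 8 of them higher, and the 6 libraries alone 7. KCNJ10, the potassium channel Kir4.1 that buffers potassium around neurons, was at 965, 1120 and 909 CPM with intmiS1 and 394, 362 and 389 CPM with StufferOnly, a log2 fold change of 1.39 (SE 0.14, adjusted p = 0.00346). SLC7A10, a transporter of D-serine and small amino acids, was at 63.5, 49.2 and 51.5 CPM against 19.4, 8.4 and 6.86 CPM. SLC4A4, a bicarbonate cotransporter, was at 367, 268 and 284 CPM against 149, 101 and 106 CPM, and HEPACAM, an adhesion protein of astrocyte contacts, at 429, 442 and 379 CPM against 239, 185 and 227 CPM. The empty capsid libraries lay at 812 to 990 CPM for KCNJ10 and at 34.8 to 43.3 CPM for SLC7A10. AQP4, the water channel of astrocyte endfeet, overlapped between the groups, at 1130, 1270 and 1920 CPM against 1690, 689 and 1260 CPM (adjusted p = 0.689).

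Of 24 reactive astrocyte genes, 3 were lower (median -1.36), against 11 by DESeq2 and 8 with the 6 libraries alone. VIM, the intermediate filament vimentin, which many other cell types also express, was at 56.8, 127 and 96.6 CPM against 639, 1210 and 866 CPM (log2 fold change -3.28, SE 0.76, adjusted p = 0.0236). TIMP1, an inhibitor of metalloproteases, was at 18.9, 25.6 and 21.1 CPM against 31.3, 91.6 and 54.1 CPM, close to the threshold (adjusted p = 0.0493). The third was 1 of 2 gene models named S100A11, a calcium-binding protein, at 0, 0.393 and 2.74 CPM against 30.7, 54.8 and 36.5 CPM. GFAP, the filament most used to mark reactive astrocytes, was at 4760, 6010 and 6500 CPM against 10000, 4760 and 8500 CPM, with overlapping groups (log2 fold change -0.43, adjusted p = 0.465). SERPINA3, a protease inhibitor of strongly reactive astrocytes, was at 61.8, 233 and 212 CPM against 621, 685 and 1040 CPM and was not called (adjusted p = 0.0737).

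**Figure D3:**
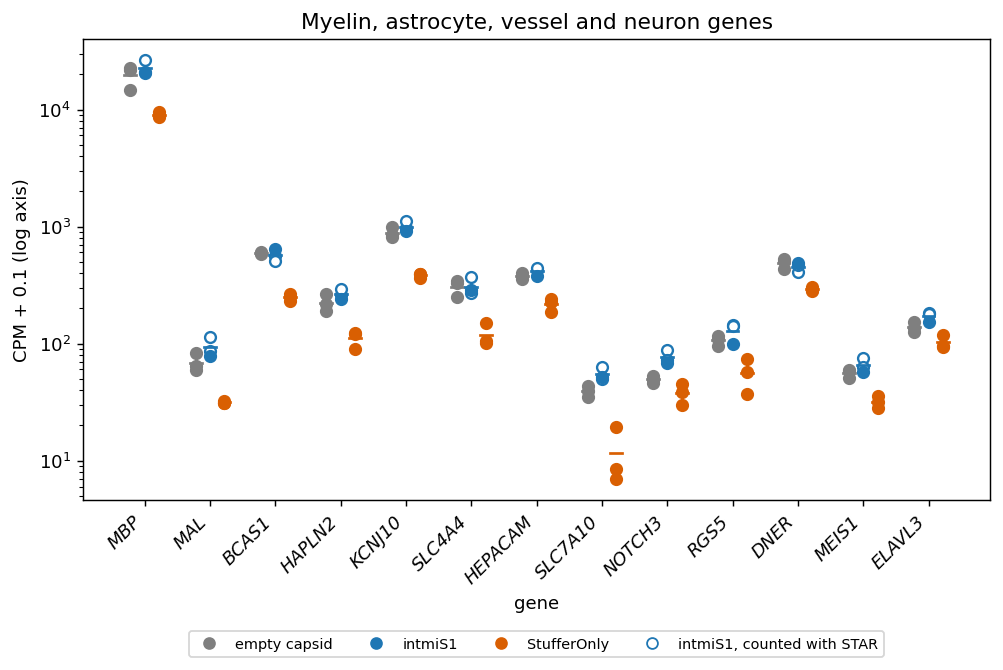
Levels of 13 genes of myelin (MBP to HAPLN2), astrocytes (KCNJ10 to SLC7A10), mural cells (NOTCH3, RGS5) and neurons (DNER, MEIS1, ELAVL3) in CPM with 0.1 added, on a log axis; points are libraries, bars are group means and open points are STAR-counted libraries. The 3 intmiS1 libraries lie above the 3 StufferOnly libraries for each gene, for KCNJ10 at 909 to 1120 CPM against 362 to 394 CPM. All 13 were picked from genes called higher that held in intmiS1 replicate 3. Genes of these cell types whose groups overlapped (MOG, AQP4, SLC17A6) or that were lower (SPP1) are not shown.

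Neuronal genes had few calls. The general neuronal list had positive log2 fold changes in 27 of 29 members, a median of 0.79 and 1 call, ELAVL3, an RNA-binding protein of neurons, at 181, 180 and 153 CPM against 95.9, 119 and 94.1 CPM. The summed level of that list was 9102, 6225 and 7050 CPM with intmiS1 and 6116, 3468 and 3048 CPM with StufferOnly. StufferOnly replicate 1 was close to intmiS1 replicate 2. Of 21 genes of deep nuclei projection neurons, MEIS1, a homeobox factor, was higher, at 74.9, 62.7 and 57.4 CPM against 31.6, 28 and 35.8 CPM. SPP1, which those neurons express and which activated macrophages also make, was lower, at 574, 627 and 756 CPM against 1090, 1050 and 1080 CPM (log2 fold change -0.71, SE 0.20, adjusted p = 0.0458), and the call passed in 4 of 13 alternatives. SLC17A6, the glutamate transporter of the projection neurons, was at 120, 88.3 and 166 CPM against 112, 54.3 and 53.9 CPM and was not called (adjusted p = 0.611).

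None of 15 inhibitory neuron genes was called (median 0.51). GAD1, which makes GABA, was at 126, 70.2 and 95.5 CPM against 70.4, 39.4 and 55 CPM, with an adjusted p of 0.169. Of 28 Purkinje cell genes, 2 were higher and 2 lower (median 0.56). With 3.41% higher and 8.46% lower over all genes tested, these few calls are not read as a result about the list. DNER, which activates Notch in neighbouring glia, was at 412, 467 and 486 CPM against 307, 284 and 281 CPM, and ZFHX2, a homeobox factor, had a log2 fold change of 0.74. HOMER3, a scaffold of the synapse, and STK17B, a kinase that lymphocytes also express, were lower, with log2 fold changes of -1.05 and -1.42. CALB1, the calcium buffer calbindin, was at 22.9, 25.8 and 24.7 CPM against 9.43, 13.1 and 12 CPM without overlap and was not called (adjusted p = 0.223).

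Vessel genes went both ways. Of 22 genes of endothelium and adhesion, 4 were higher and 3 lower, with a median of 0 that changed sign between alternative settings. SLC2A1, the glucose transporter of the blood-brain barrier, was at 230, 242 and 228 CPM against 140, 122 and 88 CPM, and FLT1, a receptor for vascular growth factor, at 80.3, 95.7 and 65 CPM against 47.3, 27.9 and 37.2 CPM. The adhesion molecules ICAM1 and ICAM2, which leukocytes bind, were lower, at 6.1, 10.2 and 5.06 CPM against 38.2, 67.9 and 48.3 CPM and at 0.381, 0.59 and 2.83 CPM against 10.6, 19 and 15.5 CPM. VWF, the clotting factor stored in endothelium, was at 65.4, 106 and 53.3 CPM against 186, 208 and 154 CPM. CLDN5, the tight junction protein, was at 32.6, 22.2 and 32.3 CPM against 25.7, 20 and 17.5 CPM (adjusted p = 0.259).

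Of 12 genes of pericytes and smooth muscle, 3 were higher (median 0.58, and 0.26 in replicate 3), the third being CSPG4, described above with the precursors. NOTCH3, the receptor of vascular mural cells, was at 88.5, 72.5 and 67.7 CPM against 45.2, 38.3 and 29.8 CPM, and RGS5, a regulator of G protein signalling in pericytes, at 144, 142 and 99.7 CPM against 73, 37 and 57.2 CPM. Of 34 collagen and matrix genes, 7 were lower and 1 higher (median -0.80), and DESeq2 called 14 lower. MMP14, a membrane-bound metalloprotease, was at 18.1, 24.8 and 19.1 CPM against 167, 383 and 214 CPM, and COL18A1, a basement membrane collagen, at 8.58, 11 and 15.4 CPM against 41.9, 74.5 and 40.5 CPM. TIMP3, a matrix-bound inhibitor of metalloproteases, was the member that was higher, at 251, 205 and 231 CPM against 155, 126 and 112 CPM.

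Iron, oxidative and stress genes were partly lower. Of 16 genes of iron and heme, 8 were lower (median -0.86). HMOX1, which breaks down heme, was at 8.77, 8.26 and 5.16 CPM against 36.2, 23.8 and 33.5 CPM. FTL, the ferritin light chain, was at 129 and 195 CPM in the STAR libraries and 502 CPM in intmiS1 replicate 3, against 2080, 2990 and 2700 CPM, and replicate 3 alone gave a log2 difference of -2.35 beside the fitted -3.23. SLC11A2, an iron importer, and BLVRB, a biliverdin reductase, had log2 fold changes of -0.83 and -1.18. Of 20 genes of oxidative stress and metallothioneins, 6 were lower (median -0.46, and -0.07 in replicate 3), among them GPX1, a glutathione peroxidase, at 9.91, 18.1 and 20.3 CPM against 166, 261 and 183 CPM, and CAT, catalase, at 27.4 to 33.7 CPM against 79.5 to 100 CPM. TXNRD1, a thioredoxin reductase, had a log2 fold change of -1.24.

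Of 23 genes of the unfolded protein and integrated stress responses, 6 were lower (median -0.43), and 10 by DESeq2. ATF3, a stress-induced transcription factor, was at 3.81, 2.56 and 3.8 CPM against 14.4, 22.2 and 21 CPM, and PPP1R15A, which restores translation after stress, at 19.3, 20.3 and 14.6 CPM against 49, 104 and 76.6 CPM. DDIT3, the factor CHOP, was at 7.47 to 7.82 CPM against 13 to 18.3 CPM, and SDF2L1, an endoplasmic reticulum protein, had a log2 fold change of -1.54. Of 22 immediate early genes, 6 were lower (median -1.27), against 10 by DESeq2 and 13 with the 6 libraries alone. JUN, a subunit of the factor AP-1, was at 40.4, 48.2 and 35.1 CPM against 136, 147 and 140 CPM. KLF6, an injury-response factor, was at 29.2 to 45.2 CPM against 117 to 178 CPM, and DUSP1, a phosphatase of kinase signalling, at 20.1 to 28.9 CPM against 36.8 to 68.4 CPM. Only MDM2, the ligase that controls p53, was called among 21 p53 targets (median -0.25), at 57.6, 54.3 and 123 CPM against 198, 210 and 198 CPM. MDM2 was lowest in the STAR libraries. The featureCounts libraries alone gave a log2 fold change of -0.71 beside the fitted -1.36, and the call passed in 7 of 13 alternatives. HSF1, the master factor of the heat shock response, was the 1 call among 15 heat shock genes, with a log2 fold change of -0.50, and passed in 2 of 13 alternatives. Neither the p53 targets nor the heat shock genes passed the share called lower over all genes tested, 8.46%.

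Of 27 cell division genes, 4 were lower (median -1.04, and -0.67 in replicate 3), against 9 by DESeq2 and 2 with the reverse STAR column. MCM6, a subunit of the replicative helicase, was at 8.01, 8.06 and 8.74 CPM against 15.7, 24.6 and 20.2 CPM, and MCM5, another subunit, had a log2 fold change of -0.96. KIF11, a spindle motor, was at 0.572 to 0.629 CPM against 1.7 to 3.53 CPM, and NUSAP1, a spindle protein, at 0.572 to 1.16 CPM against 2.39 to 5.15 CPM. None of 12 meningeal genes was called (median -0.93, and -1.21 in replicate 3). Of the meningeal markers, LUM was at 8.01, 12.4 and 11.4 CPM against 24.5, 71.5 and 64.3 CPM. IGF2 was at 48.4, 73.5 and 77.9 CPM against 89.2, 371 and 224 CPM. The groups did not overlap for LUM and IGF2. SLC22A6 overlapped, at 31.3, 20.1 and 34.7 CPM against 26.1, 11.5 and 12.4 CPM. The single call among 11 choroid plexus and ependymal genes was ENPP2, which oligodendrocytes also express, at 437, 540 and 552 CPM against 247, 335 and 352 CPM. Neither of the 2 red blood cell genes tested was called.

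Of 24 cholesterol synthesis genes, 4 were higher and 1, FDFT1, was lower (median 0.65, and 0.77 in replicate 3), and DESeq2 called 7 higher. DHCR7, of the last step, was at 13.5, 9.24 and 13.6 CPM against 5.52, 2.69 and 4.78 CPM, and TM7SF2, a sterol reductase, at 30.7 to 37.9 CPM against 16.9 to 20.7 CPM. FDFT1, squalene synthase, was at 41 and 51.3 CPM in the STAR libraries and 257 CPM in intmiS1 replicate 3, against 1780, 4310 and 2530 CPM with StufferOnly and 288, 284 and 262 CPM with empty capsid. Its fitted log2 fold change was -4.62 (SE 0.87, adjusted p = 0.0137), and replicate 3 alone gave -3.39. The STAR libraries were at least 2-fold below every featureCounts library for FDFT1, as they were for CTSB, its neighbour in the RefSeq annotation of the macaque assembly T2T-MMU8v2.0. FDFT1 was at 59.7% to 62.8% of the CTSB level in the StufferOnly libraries, 77.9% in intmiS1 replicate 3, and 33.9% and 36.6% in the STAR libraries. Whether the counts of these neighbours share reads was not tested, so the value of FDFT1 is uncertain.

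Among partners of ATXN1 and targets of capicua, the repressor that binds ATXN1, 2 of 20 genes were higher and 1 lower (median 0.23). Over all genes tested 3.41% were higher and 8.46% lower, so these few calls are not read as a result about the list. SPRY4 and SPRED2, inhibitors of growth factor signalling, were at 29.2, 28.3 and 22.2 CPM against 14.9, 10.4 and 13.4 CPM and at 80.8, 73.1 and 62.5 CPM against 46.6, 42.7 and 41.8 CPM. PTPN9, a tyrosine phosphatase, was lower, at 36.2, 45.2 and 42.4 CPM against 59, 80.1 and 68.5 CPM, and passed in 4 of 13 alternatives. Of 21 genes of microRNA processing and function, 2 were higher and 1 lower (median 0.14, and 0.03 in replicate 3). Beside the same shares over all genes tested, these few calls do not set that list apart either. TNRC6C, a scaffold of microRNA silencing, was at 133, 131 and 119 CPM against 84.2, 95.5 and 91.5 CPM, and TNRC6A, its paralog, at 260, 255 and 193 CPM against 180, 153 and 164 CPM. TUT7, which adds uridines to RNA ends, was at 56.6, 63.7 and 51.3 CPM against 123, 146 and 141 CPM.

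The largest rises fell into 2 kinds. In 7 of the 12, the genes CYP26B1, BMP4, SLC7A10, U6, LIAT1, VWDE and KCNK12, intmiS1 replicate 3 showed at least 0.5 of the fitted difference. CYP26B1, which degrades retinoic acid, was at 70.9, 20.6 and 50 CPM with intmiS1 and 6.39, 8.54 and 9.66 CPM with StufferOnly, with a log2 fold change of 2.53 (SE 0.69, adjusted p = 0.0392). Empty capsid libraries were at 52.6, 78.2 and 75.7 CPM. BMP4, a growth factor, was at 14.9, 8.26 and 4.65 CPM against 2.12, 1.39 and 1.58 CPM, and KCNK12, a two-pore potassium channel subunit, at 17.3, 36.6 and 14.1 CPM against 6.3, 5.62 and 5.4 CPM. VWDE, with von Willebrand factor domains, was at 8.96 to 13.6 CPM against 1.21 to 3.97 CPM, and LIAT1 at 11.2 to 25.5 CPM against 2.65 to 5.88 CPM. The U6 entry is 1 of many gene models for this spliceosomal RNA, and reads from its copies cannot be told apart, so its log2 fold change of 2.23 is uncertain.

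In the other 5, EEF1A1, SDHC, ATP5F1B, LDHB and RPL7A, the STAR libraries were at least 2-fold above every featureCounts library and replicate 3 showed less than 0.5 of the fitted difference. EEF1A1, a translation elongation factor, was at 597 and 741 CPM in the STAR libraries and 96.7 CPM in replicate 3, against 44.7, 61 and 49.2 CPM with StufferOnly. Its fitted log2 fold change was 3.21, and replicate 3 alone gave 0.92. RPL7A, a ribosomal protein, was at 41.4 and 43.5 CPM and at 7.39 CPM in replicate 3, against 6.66, 7.24 and 7.08 CPM, where replicate 3 alone gave 0.08 beside the fitted 2.12. SDHC, of respiratory complex II, was at 49, 49 and 6.01 CPM against 5.49, 3.62 and 5.4 CPM. ATP5F1B, of the ATP synthase, and LDHB, a lactate dehydrogenase subunit, gave 0.66 and 1.00 in replicate 3 beside fitted values of 2.58 and 2.47. Processed copies of such genes are common in primate genomes, so how reads were shared among copies is uncertain for them.

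**Figure D4:**
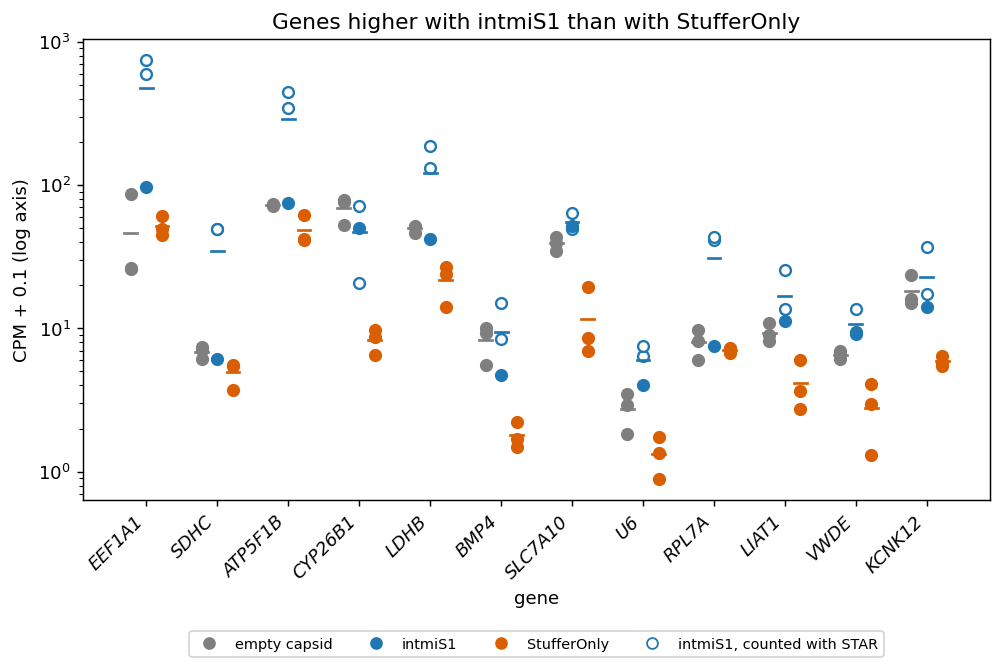
Levels of the 12 genes with the largest rises, in CPM with 0.1 added, on a log axis; points are libraries, bars are group means and open points are the intmiS1 libraries counted with STAR. For EEF1A1, SDHC, ATP5F1B, LDHB and RPL7A the open points lie far above the filled intmiS1 point, for RPL7A at 41.4 and 43.5 CPM against 7.39 CPM.

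Over all calls, the STAR libraries were at least 2-fold above every featureCounts library in 24 of the 734 genes called higher, and at least 2-fold below in 125 of the 1820 called lower. Of all genes tested, 53 showed the first pattern and 1331 the second. Respiratory chain genes belonged partly to the first. Of 31 tested, 6 were higher and 1 lower, and only NDUFA4 and ATP5PB, subunits of the oxidase and of ATP synthase, kept at least 0.5 of the difference in replicate 3, at 118 and 60.9 CPM against 60.3 to 80.8 and 44.1 to 52.9 CPM. Among 75 ribosomal protein genes, a set chosen after the values were seen, 25 were lower, all with at least 0.5 of the difference in replicate 3, such as RPS19 at 48.4, 45.2 and 58 CPM against 93.7, 95.1 and 101 CPM. A further 9 were higher, of which 4 held in replicate 3 and only 1, RPL37, kept at least 0.5 of the difference there. The part that the counting program plays in these differences was not tested beyond reading replicate 3 alone.

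**Figure D5:**
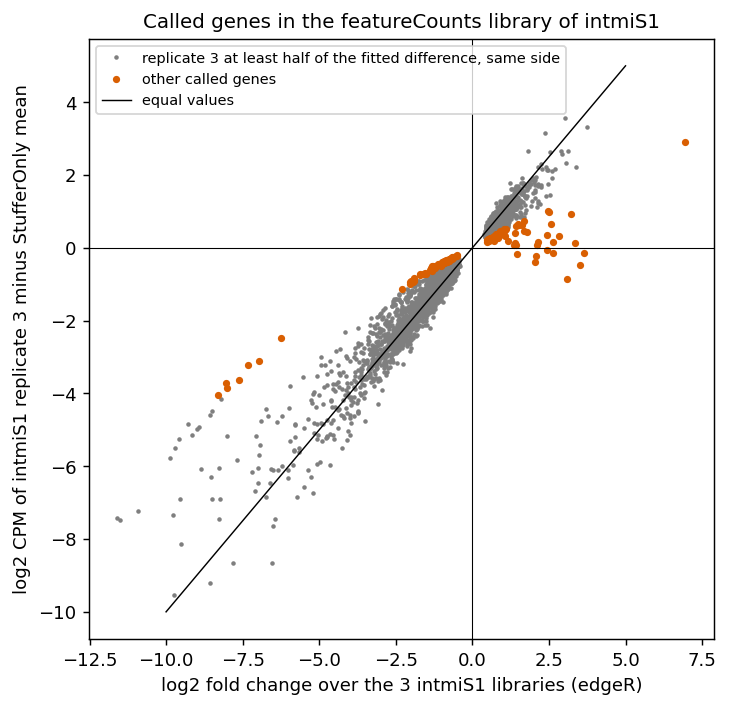
For the 2554 called genes, the fitted log2 fold change over the 3 intmiS1 libraries (horizontal) is plotted against the log2 CPM difference of intmiS1 replicate 3 from the StufferOnly mean (vertical); the line marks equal values. Orange points are the genes in which replicate 3 showed less than 0.5 of the fitted difference; grey points, 675 called higher and 1757 called lower, showed at least that.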

How the data were processed

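Per the labels' protocols, total RNA was extracted with TRIzol, depleted of ribosomal RNA with a human, mouse and rat kit, and turned into strand-marking NEBNext libraries. The authors deposited read counts per gene. The submitters' processing notes name STAR 2.6.0c and DESeq2. No source used here names the genome build: it is not given. Per the file headers, 10 of the 12 Study 2 DCN libraries were counted with featureCounts, with reads that overlap several genes counted in each. The other 2, intmiS1 replicates 1 and 2, are STAR tables, of which the unstranded column was used. In these 2 tables, the rows for unmapped, multimapped, ambiguous and no-gene reads held 68.4% and 71.2% of the reads and stayed out of library sizes. The file headers and tables give 34847 gene identifiers common to all files, of which 24009 have a symbol.

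The 12 libraries of 4 groups were fitted together with edgeR 4.0.16 in R 4.3.3 (filterByExpr with a minimum count of 10 and total of 15, TMM, quasi-likelihood F test), so that the groups share 1 estimate of the spread. P values were adjusted by Benjamini-Hochberg over all genes tested, with a threshold of 0.05. The prior count was 0.125 for fold changes and 2 for log2 CPM. The SE of a log2 fold change is its size over the square root of F. Intervals of log2 fold changes use this SE with a normal quantile, so they are somewhat narrow for so few libraries. Gene values are CPM after TMM. Vector values are RPM over gene counts, and their intervals and limits cover counting error only. The fit was tested on simulated counts that held no difference between counting programs, so that test does not cover such a difference. The p values rest on the spread between libraries within the 4 groups. Within intmiS1, that spread mixes differences between animals with those of counting program and depth. The members, the 41 gene lists and the tests were chosen with earlier results of these data known. Named genes are ATXN1 and ATXN7, the 12 largest rises and 12 largest falls among called genes with symbols that held in intmiS1 replicate 3 and averaged 1 log2 CPM or more, up to 4 called members per list by smallest p, and the cell type markers. ATXN1L, SALL1, SERPINA3 and RPS19 were named after their values were seen. Alternatives were RLE factors, DESeq2 1.42.0, no filter, the 6 libraries alone, the reverse-strand STAR column, the featureCounts libraries alone, a replicate block, and each library left out. Study 1 and small RNA were not analysed here, and a few genes that the naming rule picks are not reported here. Figures were drawn with matplotlib 3.10.9.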

Additional observations from a re-analysis of the deposited data

Results flagged for a closer look

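Reads on features named Rep2 and Cap1, which are no part of the gene comparison, appeared above the empty capsid libraries in both groups. Rep2 reads averaged 63.9 RPM with intmiS1 (101, 87.5 and 3.1 RPM) and 15.2 RPM with StufferOnly (11.3, 26.6 and 7.79 RPM), where no empty capsid library passed 0.0702 RPM. Cap1 reads averaged 49.8 RPM with intmiS1 (79.1, 67.1 and 3.31 RPM) and 10.7 RPM with StufferOnly (8.61, 16.7 and 6.92 RPM), with at most 0.0503 RPM in empty capsid libraries. The 2 high intmiS1 values are those of the STAR-counted libraries, and intmiS1 replicate 3 lay below all StufferOnly libraries for both features.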

How the results depend on the processing

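Of 145 named genes that were called, 145 kept their sign in every alternative fitted. Most were picked because they were called, and the alternatives reuse most of the same libraries, so a kept sign was likely. Called genes shared with the reported 2554 numbered 2539 with DESeq2, 2372 with RLE factors and 2000 with the 6 libraries alone. DESeq2 called 1574 higher, of which 1509 held in intmiS1 replicate 3, and 2670 lower. The featureCounts libraries alone gave 0 higher and 0 lower by edgeR, with 3469 genes at an unadjusted p under 0.05, and 333 and 1184 by DESeq2. Leaving out 1 library gave 48 to 944 higher and 84 to 2888 lower, and 48 to 625 and 84 to 1542 among calls that held, which cannot be counted without intmiS1 replicate 3. The cause of the differences between these settings was not tested. No filter gave 511 higher and 1590 lower. Lower calls made up 71.3% of calls, and 65.3% with RLE factors and 62.9% with DESeq2. The median of all genes was -0.13 with the reverse column. Requiring replicate 3 to show at least 0.5 of the fitted difference, a rule chosen after seeing the data, left 675 higher and 1757 lower. With the reverse column 2529 of the 2554 calls kept their direction. List medians kept their sign apart from endothelium, choroid plexus and red blood cells. Libraries with the same replicate number did not deviate together (correlations of 0.08, 0.035 and -0.011). Deviations within intmiS1 also carry the difference in counting program, so this check cannot tell whether the numbers pair the animals. The replicate block gave 953 higher and 2111 lower. ATXN1 stayed uncalled in 13 alternatives, with log2 fold changes of -0.44 to -0.07. Depth limits the STAR libraries most: a gene at 1 CPM there rests on about 5 counts.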
